A study of Mus musculus and synthetic construct with 30 samples.

Results

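The 10 genes described here code for Sox transcription factors: *Sox1*, *Sox2* and *Sox3* of the SoxB1 group, *Sox4* and *Sox11* of SoxC, *Sox6* of SoxD, *Sox9* and *Sox10* of SoxE, and *Sox17* and *Sox18* of SoxF. They were taken by symbol from the 26759 genes quantified in 16 RNA-seq libraries of mice and cells with and without *Peril*, a long intergenic noncoding RNA gene near *Sox2*. A mouse Sox factor binds DNA through its HMG box, which recognizes short motifs such as ACAAAG and bends the helix. The factors mostly act with a partner, such as the POU factor Oct4 (*Pou5f1*) beside Sox2 in pluripotent cells. SoxB1 factors maintain pluripotent and neural progenitor cells, SoxC factors act in young neurons and in many growing organs, SoxE factors in cartilage, ducts, glia and neural crest, and SoxF factors in endothelium and endoderm.

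The question for these genes was where each is expressed and whether it changed in KO cells or tissue. mESC libraries came from 3 wells of 1 male WT clone and 3 wells of 1 male KO clone, grown in 2i medium on feeder fibroblasts, so clone and genotype cannot be told apart there. E14.5 kidney libraries came from embryos of litter L43 (WT 1, 3 and 8, of which WT 3 is female, and KO 7, 9 and 10, of which KO 7 is male), and E14.5 ganglionic eminence with olfactory bulb (GE/OB) came from litter L46, with WT 1 and 3, both male, and KO 2 and 7, both female. Litters are as the study's sample sheet names them. In GE/OB sex and genotype therefore cannot be told apart. Kidney and GE/OB differ in litter as well, and mESC differ from both in RNA input by the paper's methods. All 16 libraries bear the strain name Periltm1.1Vlcg and a mixed C57BL/6J and 129S6 background without the Neo cassette. KO means that the *Peril* gene body, but not its promoter, was removed and a *LacZ* reporter put in its place.

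Libraries held 17544707 to 45924887 expected counts. *LacZ* checked the labels where the locus is active, at 69.6 to 73.7 TPM (a level scaled by transcript length and by library size, so that genes can be compared) in the 3 KO mESC libraries against 0.02 to 0.07 in WT, and at 44.4 and 45.8 in KO GE/OB against 0 and 0.1. In kidney it was at 0.08 to 0.47 TPM in all 6 libraries, so it checks no kidney label. *Peril* was at 0.33 to 0.57 TPM in WT and 0.16 to 0.24 in KO mESC, and at 0 in every kidney and GE/OB library. Marker lists matched the labelled tissues: summed TPM of 7 pluripotency genes was at least 8352 in mESC, of 9 kidney genes at least 479 in kidney, and of 9 ganglionic eminence genes at least 1240.2 in GE/OB, with 26.5, 7.55 and 5.63 as the highest sums elsewhere. The 7 feeder fibroblast markers summed to 3.04 to 4.04 TPM in WT and 1.35 to 2.18 in KO mESC, none of the 7 at 0 in every library of a group. In KO mESC *Col3a1* and *Lox* were called lower, where 4.59% of all tested genes were. Of the 7, 6 had log2 values below 0 and 1 above 0. The 6 erythroid markers summed to 4436 to 6151 TPM in WT and 3774 to 5006 in KO kidney, and to 1281 to 1849 in GE/OB. The part of either cell type in the results below was not tested.

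Sequence upstream of the start is shown for 3 genes, *Sox2*, *Sox4* and *Sox11*, since these had the highest WT levels of the 10 in mESC (*Sox2*), kidney (*Sox4*) and GE/OB (*Sox4*, then *Sox11*). RefSeq windows on GRCm38.p6 were held for 5 of the 10 genes, *Sox1*, *Sox2*, *Sox4*, *Sox6* and *Sox11*, and place some starts at other bases than GENCODE, from which the gene positions below come. Bases are 5' to 3' on the gene's own strand, and capitals mark every match, on either strand, to the Sox motif ACAAAG or its variant ACAATG, to ATGCAAA (part of the octamer that POU factors bind), to the CCAAT box or to the TATA box TATAAA. *Sox2* is at chr3:34649745-34649994 (plus strand), *Sox11* at chr12:27342719-27342968 (minus strand) and *Sox4* at chr13:28953714-28953949 (minus strand, with the 14 bases nearest to the RefSeq start left off).
Sox2: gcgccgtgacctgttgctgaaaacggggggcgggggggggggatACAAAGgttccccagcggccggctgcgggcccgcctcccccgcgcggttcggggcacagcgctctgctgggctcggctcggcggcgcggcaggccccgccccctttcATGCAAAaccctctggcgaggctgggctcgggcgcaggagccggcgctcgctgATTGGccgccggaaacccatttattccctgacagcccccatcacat
Sox11: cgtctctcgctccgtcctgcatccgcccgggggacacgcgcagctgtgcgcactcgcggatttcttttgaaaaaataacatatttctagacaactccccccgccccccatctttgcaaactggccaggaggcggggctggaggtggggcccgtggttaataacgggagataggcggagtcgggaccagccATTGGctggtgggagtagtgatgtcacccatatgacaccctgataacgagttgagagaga
Sox4: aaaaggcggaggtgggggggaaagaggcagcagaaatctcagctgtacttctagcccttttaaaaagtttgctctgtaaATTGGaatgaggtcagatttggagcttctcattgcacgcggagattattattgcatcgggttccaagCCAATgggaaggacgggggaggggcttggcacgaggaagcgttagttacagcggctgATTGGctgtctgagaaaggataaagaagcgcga
The *Sox2* stretch holds ACAAAG at 206 bases before the start, ATGCAAA at 99 and CCAAT (read on the opposite strand) at 46, counted to the match's first letter as printed. Over 32851 promoter windows of 250 bases, 16.5% hold ACAAAG, 10.7% hold ACAATG, 4.12% hold ATGCAAA, 33.8% hold CCAAT and 12.4% hold TATAAA. The *Sox11* stretch holds 1 match, to CCAAT, and the *Sox4* stretch 3, all to CCAAT, and in each stretch 0 matches overlap. The 14 bases left off for *Sox4* hold a further CCAAT match, at 8 bases before the start. *Sox2* upstream sequence was 72% G and C with 27 CpG, against medians of 52.4% and 6 over all windows. *Sox11* had 58% and 17 CpG, and the full *Sox4* window 50.8% and 11. These matches describe letters, not bound sites.

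The 3 tissues held different mixtures of Sox transcripts. Summed TPM of the 10 genes was 267 to 285 in mESC, 93.4 to 106 in kidney and 808 to 926 in GE/OB, so the 3 ranges did not overlap. In mESC nearly all of it was *Sox2*, in kidney most was *Sox4* and *Sox11*, and in GE/OB *Sox4*, *Sox11* and *Sox2* led. All of the genes named Sox in the files, 20 in number, summed to 333 to 348, 168 to 185 and 1021 to 1161 TPM, of which the 10 made up 79.2 to 81.8%, 54.5 to 58.3% and 78.2 to 80.8%. In bulk tissue fewer cells of a type and less RNA per cell cannot be told apart.

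**Figure D1:**
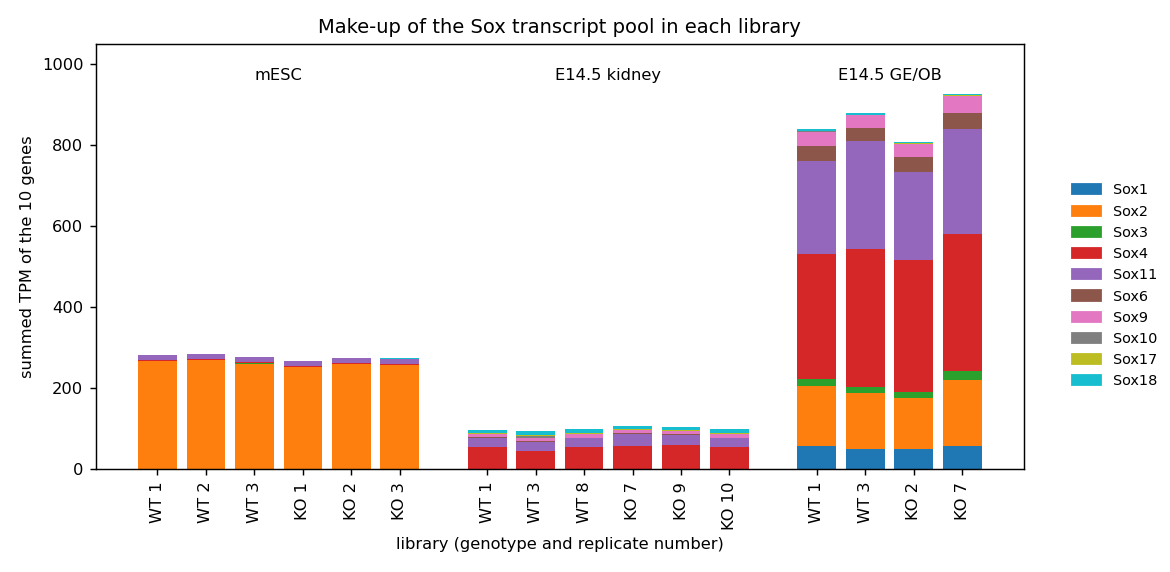
Stacked bars give the summed TPM of the 10 Sox genes in each of the 16 libraries, grouped by tissue and named by genotype and replicate number. Bars reach 267 to 285 in mESC, 93.4 to 106 in kidney and 808 to 926 in GE/OB, with Sox2 filling most of each mESC bar.

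All 10 genes passed the filter on low counts, and between tissues of WT nearly every one differed. In edgeR's quasi-likelihood test, 7 of 10 were higher and 3 lower in kidney than in mESC (84.3% of all 17459 tested genes were called there, 44.1% higher and 40.2% lower). In GE/OB 9 were higher and 1 lower than in mESC (84.8% called, 43.5% higher and 41.3% lower), and 7 were higher and 2 lower than in kidney (78.4% called, 37.9% higher and 40.6% lower). The share called was thus high for genes at large. Their median log2 fold change was 3.01, 4.66 and 2.42 in those comparisons, beside 0.08, 0.06 and -0.04 over all tested genes. RLE scaling moved these all-gene medians to 0.11, 0.11 and -0.03, and each member kept its direction.

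The SoxB1 genes were the neural and pluripotency end of the set. *Sox2* (chr3:34650405-34652461, a gene without introns lying inside the noncoding *Sox2ot* on the same strand, 119614 bases before *Peril*) sustains the pluripotent state and neural stem cells. Its TPM was 266, 268 and 259.4 in WT mESC and 250.1, 258.5 and 257 in KO mESC. In GE/OB it was 148 and 138 in WT and 125 and 163 in KO, while the 6 kidney libraries held 0.01 to 0.89. WT GE/OB was thus 2.96-fold lower than WT mESC (log2 -1.56, SE 0.21, adjusted p = 3.31e-06), a call that DESeq2 did not make (log2 -1.52, adjusted p = 0.135). *Sox1* (chr8:12395295-12400126), which marks the early neural plate and neural progenitors, was at 49.6 to 57.6 TPM in GE/OB, 0.79 to 1.02 in mESC and 0 to 0.11 in kidney. *Sox3* (chrX:60891366-60893430), X-linked and acting in neural progenitors and the pituitary, was at 14.3 to 23.8, 0.29 to 0.71 and 0 to 0.13. For both the ranges of the 3 tissues did not overlap, with GE/OB highest: 39.3-fold (*Sox1*) and 16.6-fold (*Sox3*) above mESC in WT, with adjusted p of 8.82e-14 and 1.55e-10.

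The SoxC genes had the same order of tissues as each other, GE/OB above kidney above mESC. *Sox4* (chr13:28948919-28953713), active in young neurons, kidney and lymphoid progenitors, was at 308 and 341 TPM in WT GE/OB, 53.6, 44.6 and 53.4 in WT kidney, and 2.57, 3.19 and 2.69 in WT mESC. *Sox11* (chr12:27334264-27342574), needed for neuron survival and organ growth, was at 230 and 267, then 23.9, 22.1 and 23.7, then 11.8, 11.6 and 13.3 in the same order. No tissue's range overlapped another's for either gene. From WT mESC to WT GE/OB, *Sox4* was 72.3-fold and *Sox11* 12.7-fold higher, and from mESC to kidney 17.4-fold and 1.83-fold, with adjusted p of at most 1.06e-06. *Sox4* is overlapped on the opposite strand by the lincRNA *Gm26735*, and the library kit does not mark strand, so their reads cannot be told apart. It was also the 1 gene of the 10 whose expected counts were not whole, in all 16 libraries.

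*Sox6* (chr7:115470872-116038796), a SoxD factor without an activation domain that works in cartilage, red cells and interneurons, was at 33.8 to 38.7 TPM in GE/OB, 0.73 to 1.53 in kidney and 0.11 to 0.32 in mESC, with no overlap of tissues. WT GE/OB was 24.5-fold above WT kidney and 112-fold above WT mESC (adjusted p = 5.18e-15 and 1.14e-16). The antisense genes *Sox6os* and *Gm45025* overlap it. *Sox9* (chr11:112782224-112787760), the cartilage and ureteric duct factor that also marks neural stem cells, was at 29.8 to 41.4 TPM in GE/OB, 7.78 to 9.7 in kidney and 0.05 to 0.09 in mESC, 2.38-fold higher in WT GE/OB than in WT kidney (adjusted p = 8.09e-08).

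The SoxF genes were the ones higher in kidney than in GE/OB. *Sox18* (chr2:181669836-181671640), a factor of blood and lymph vessels, was at 6.9 to 9.49 TPM in kidney, 2.76 to 3.44 in GE/OB and 0.03 to 0.19 in mESC. *Sox17* (chr1:4490931-4497354), which acts in endoderm and arterial endothelium, was at 1.69 to 2.58, 1.14 to 1.37 and 0.11 to 0.26. WT GE/OB was 3.99-fold lower than WT kidney for *Sox18* and 2.35-fold lower for *Sox17* (adjusted p = 6.86e-08 and 0.000123), without overlap of libraries. Of 9 endothelial genes on a list of such markers, 8 were called lower in the same comparison, beside 40.6% of all tested genes. The 9 had a median log2 fold change of -1.12. Their summed TPM was 184 to 281 in the kidney libraries and 110 to 128 in GE/OB. *Sox17* is overlapped on the opposite strand by *Gm37587*.

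**Figure D2:**
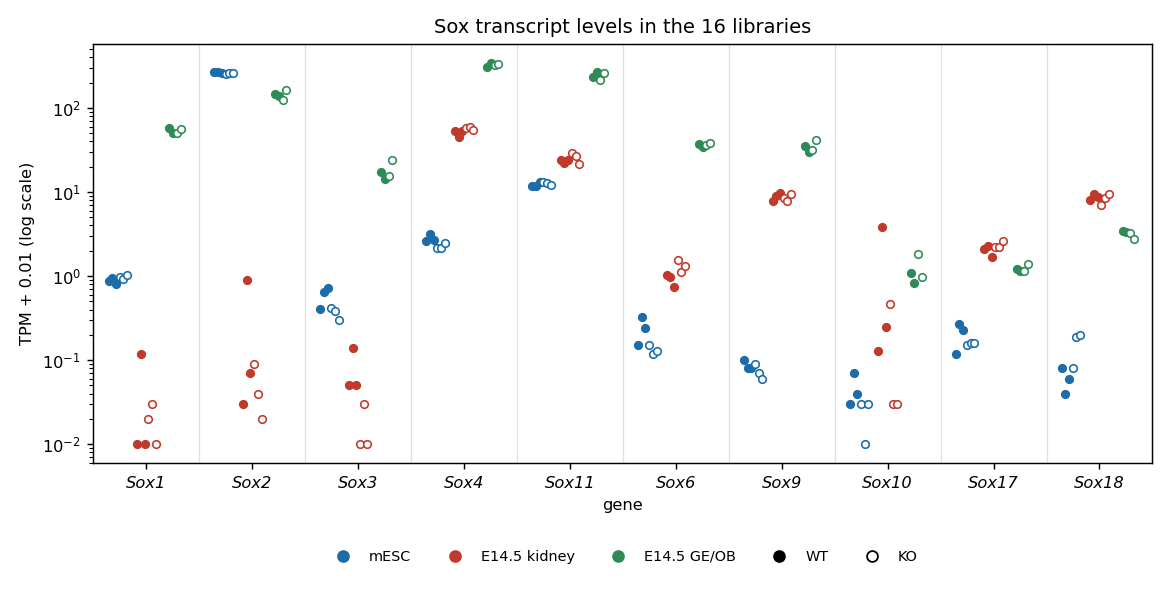
Each point is 1 library, with TPM plus 0.01 on a log axis, by gene, tissue (colour) and genotype (filled WT, open KO). Sox2 stands highest in mESC, Sox4 and Sox11 in GE/OB, Sox18 and Sox17 in kidney, and Sox10 has 1 kidney point at 3.86 TPM above the other 5.

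Ranked within a tissue by WT mean, *Sox2* (264 ± 4.44, SD, n = 3), *Sox11* (12.2 ± 0.898), *Sox4* (2.82 ± 0.329), *Sox1* (0.86 ± 0.07) and *Sox3* (0.58 ± 0.161) led in mESC, each without overlap with the next. Below them *Sox6* overlapped *Sox17*, and *Sox9*, *Sox18* and *Sox10* overlapped in turn. In kidney *Sox4* (50.5 ± 5.12, n = 3) and *Sox11* (23.2 ± 0.975) led, *Sox9* (8.83 ± 0.974) and *Sox18* (8.73 ± 0.72) did not differ beyond their spread, and from *Sox17* (2.01 ± 0.295) down each gene overlapped the next. In GE/OB *Sox4* (325 ± 23.2, n = 2), *Sox11* (248 ± 26.4), *Sox2* (143 ± 6.97) and *Sox1* (53.6 ± 5.65) came first, *Sox6* (35.7 ± 2.6) overlapped *Sox9* (32.6 ± 3.87), and *Sox3*, *Sox18*, *Sox17* and *Sox10* followed without overlap.

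The genes whose pattern over the 16 libraries was most like each Sox gene, by Pearson's r of log2(TPM + 1) over 17458 genes, followed its tissue. For *Sox2* they included *Zic2* (r = 0.9977), *Dnajc6* (0.9975), *Tet2* (0.9964) and *Pik3cb* (0.9960). For *Sox4* they were *Maged1* (0.9994) and *Lrrn1* (0.9992), for *Sox11* *Nat8l* (0.9978) and *Nrxn3* (0.9972), for *Sox1* *Srrm4* (0.9993) and *2310044G17Rik* (0.9991), for *Sox3* *Gareml* (0.9982) and *AI854517* (0.9969), for *Sox6* *Cdk5r1* and *Gabra2* (both 0.9984), and for *Sox9* *Clip3* (0.9982) and *Pja1* (0.9981). For *Sox17* they were *Adcy4* and *Lhx1* (both 0.9951), for *Sox18* *Gng11* (0.9977) and *Rhoj* (0.9968), and for *Sox10*, with lower values, *Egfl8* (0.9224) and *Cdh19* (0.9120). The points share 3 tissues, so these values describe the tissue order and carry no test.

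*Sox10* was the exception in kidney, where 1 library set its level. It is the factor of neural crest, Schwann cells and oligodendrocytes. Its TPM was 0.12, 3.86 and 0.24 in WT 1, 3 and 8 (8, 203 and 9 counts) and 0.45, 0.02 and 0.02 in KO 7, 9 and 10 (19, 2 and 2 counts). WT 3 was far above the other 5 libraries, and the remaining WT values lay within the range of KO. GE/OB held 1.09 and 0.81 in WT and 1.8 and 0.97 in KO, and mESC 0 to 0.06. Between tissues of WT, *Sox10* was higher in kidney than in mESC (log2 5.21, SE 1.33, adjusted p = 0.00173), but without kidney WT 3 the value was 2.18 (adjusted p = 0.0872). Against WT kidney, WT GE/OB gave log2 -1.20 (adjusted p = 0.304), but 1.84 (adjusted p = 0.0567) without that library and 2.94 (adjusted p = 0.0316) between KO libraries, so the direction turned. *Sox10* was higher in WT GE/OB than in WT mESC (log2 4.01, adjusted p = 0.0269), but not past the threshold without GE/OB WT 1 (3.78, adjusted p = 0.093), mESC WT 1 (3.78, adjusted p = 0.0625) or mESC WT 3 (3.88, adjusted p = 0.0676).

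Other genes of the same lineage stood high in kidney WT 3. *Foxd3*, a neural crest factor, was at 0.53 TPM there and at 0 to 0.08 in the other 5 kidney libraries, and *Cdh19*, a cadherin of Schwann cell precursors, at 0.54 against 0 to 0.02. The neuregulin receptor *Erbb3*, at 4.23 to 7.11 in all 6, was not set apart, at 5.88 in WT 3. The list of 8 Sox10 lineage genes summed to 25.2 TPM in WT 3 and to at most 11.8 in the others. Of 17458 genes ranked by how far WT 3 lay above the next kidney library, *Sox10* was rank 4 and *Sox2* rank 26. *Sox2* had 42 counts there (0.89 TPM) against 1 to 3 in the other 5, *Sox2ot* 18 against 0 to 3, *Sox1* 11 against 0 to 3 and *Sox3* 5 against 0 to 2. The 9 ganglionic eminence markers summed to 4.17 TPM in WT 3 and to 1.09 to 2.14 in the other 5, and in KO against WT kidney 8 of the 9 had log2 values below 0 (median -0.75), with 0 called by edgeR (2 at an unadjusted p under 0.05). The part of such RNA in the Sox values was not tested.

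**Figure D3:**
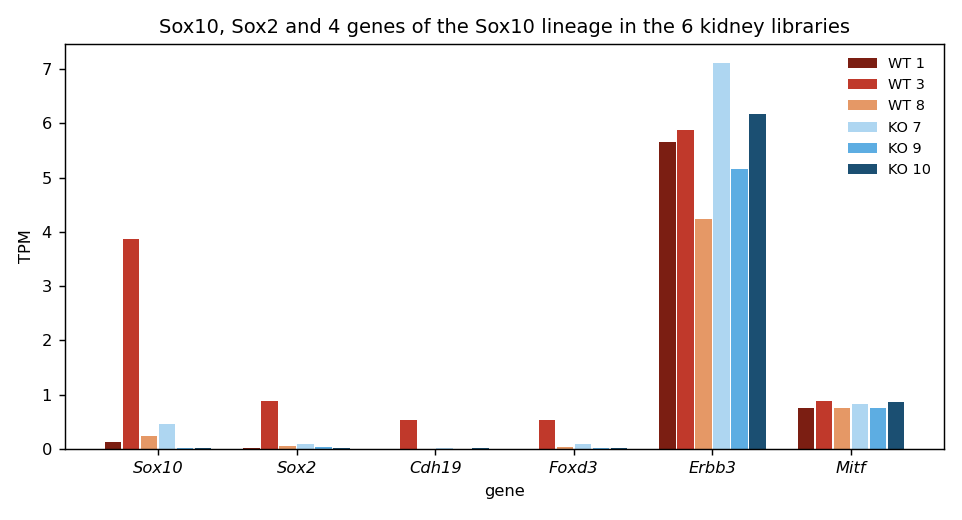
Bars give TPM in each of the 6 kidney libraries (WT 1, 3 and 8 in reds, KO 7, 9 and 10 in blues) for Sox10, Sox2 and 4 genes of the Sox10 lineage. WT 3 reaches 3.86 for Sox10 and 0.89 for Sox2, above every other library, while for Erbb3, at 4.23 to 7.11, it lies within the range of the others.

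KO was compared with WT within each tissue. 1 of the 10 genes was called in mESC, *Sox4*, lower in KO, where 6.86% of all tested genes were called (4.59% lower). In kidney and GE/OB 0 were called by edgeR, beside 0.223% and 0.063% of all tested genes. At an unadjusted p under 0.05 the counts were 3, 3 and 0 of 10, beside 21.2%, 7.6% and 3.01% of all tested genes. DESeq2 called 1, 0 and 0 of the 10, beside 1644, 76 and 19 of all 17459 genes. The median log2 fold change of the 10 genes was -0.15, -0.13 and 0.02 in mESC, kidney and GE/OB, beside -0.03, 0 and 0.02 over all tested genes.

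**Figure D4:**
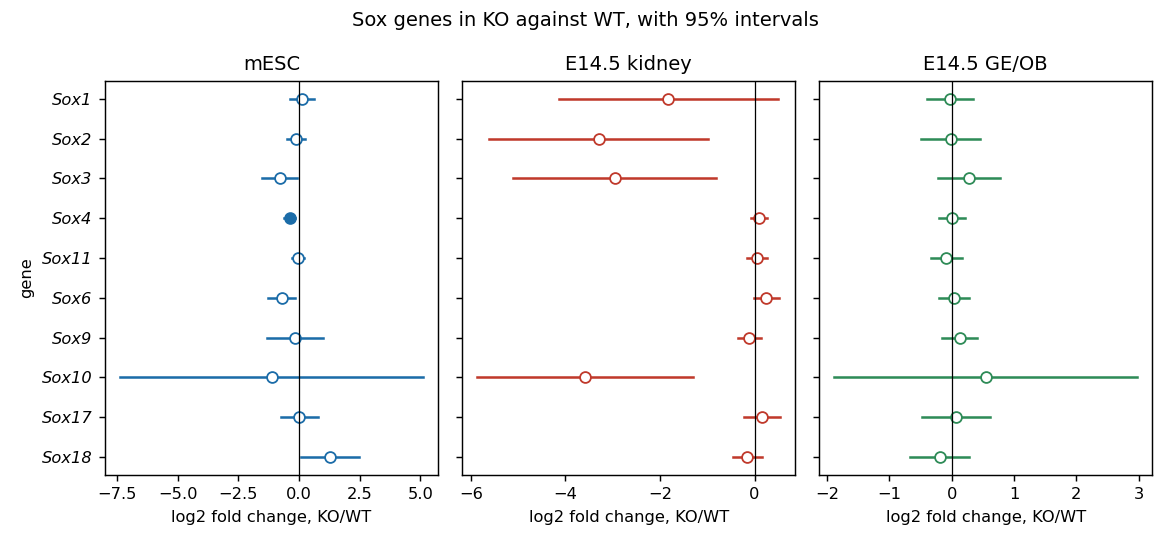
Points give the log2 fold change of KO over WT from edgeR and lines its 95% interval, for the 10 genes in each tissue (x axes differ between panels). Filled points passed an adjusted p under 0.05. The filled point is Sox4 in mESC at -0.38, and the long lines belong to genes with few counts.

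*Sox4* fell by 0.38 on the log2 scale in KO mESC (95% interval -0.61 to -0.15, 1.30-fold, adjusted p = 0.042). Its TPM was 2.57, 3.19 and 2.69 in WT and 2.15, 2.14 and 2.48 in KO, so all 3 KO wells lay below all 3 WT wells, as was so in either direction for 30.9% of tested genes. These levels rest on 238 to 335 counts in WT and 116 to 214 in KO. The call was near its threshold and was lost in other fits. With RLE scaling adjusted p was 0.0537. It rose above 0.05 on leaving out mESC WT 2 (0.184), WT 3 (0.0782), KO 1 (0.0867), KO 2 (0.152) or KO 3 (0.0674), or kidney KO 7 (0.0521), and stood at 0.05 without kidney WT 1. The summed TPM of the feeder markers given above was also lower in KO mESC, and the part of feeder RNA in the *Sox4* value was not tested. In kidney the KO values of 57.5, 58.8 and 54.8 lay above the WT values of 53.6, 44.6 and 53.4, without overlap (16.3% of tested genes had none), but the change did not pass the test (log2 0.09, interval -0.07 to 0.26, adjusted p = 0.836). In GE/OB it was 308 and 341 in WT and 327 and 336 in KO (log2 0.00, interval -0.20 to 0.21, adjusted p = 1). The difference between its changes in mESC and kidney was log2 -0.47 (SE 0.13, adjusted p = 0.0796), not past the threshold.

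*Sox2*, the gene nearest to the deletion among the 10, was not called in any tissue. In mESC the KO wells (250.1, 258.5 and 257 TPM) lay just below the WT wells (266, 268 and 259.4), without overlap, as for 30.9% of tested genes. The value was log2 -0.12 (interval -0.50 to 0.26, adjusted p = 0.767) on 6866 to 15927 counts. A decrease of more than 0.50 on the log2 scale lay outside the interval. Fitted with the mESC libraries alone the value was -0.08 (adjusted p = 0.0916). In GE/OB WT and KO overlapped (log2 -0.02, interval -0.50 to 0.46, adjusted p = 1). In kidney, with 1, 42 and 2 counts in WT and 3, 2 and 1 in KO, log2 was -3.30 (interval -5.61 to -0.98, adjusted p = 0.45), and -0.08 (adjusted p = 1) without WT 3. Leaving out kidney WT 1 instead, or adding sex as a covariate, gave -4.05 and -4.33 with adjusted p of 0.0369 and 0.0103, in fits that keep WT 3. *Sox2ot*, at 88.3 to 95.4 TPM in GE/OB and 0.36 to 0.76 in mESC, had log2 -0.06 (adjusted p = 1) and -0.27 (adjusted p = 0.789) there.

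**Figure D5:**
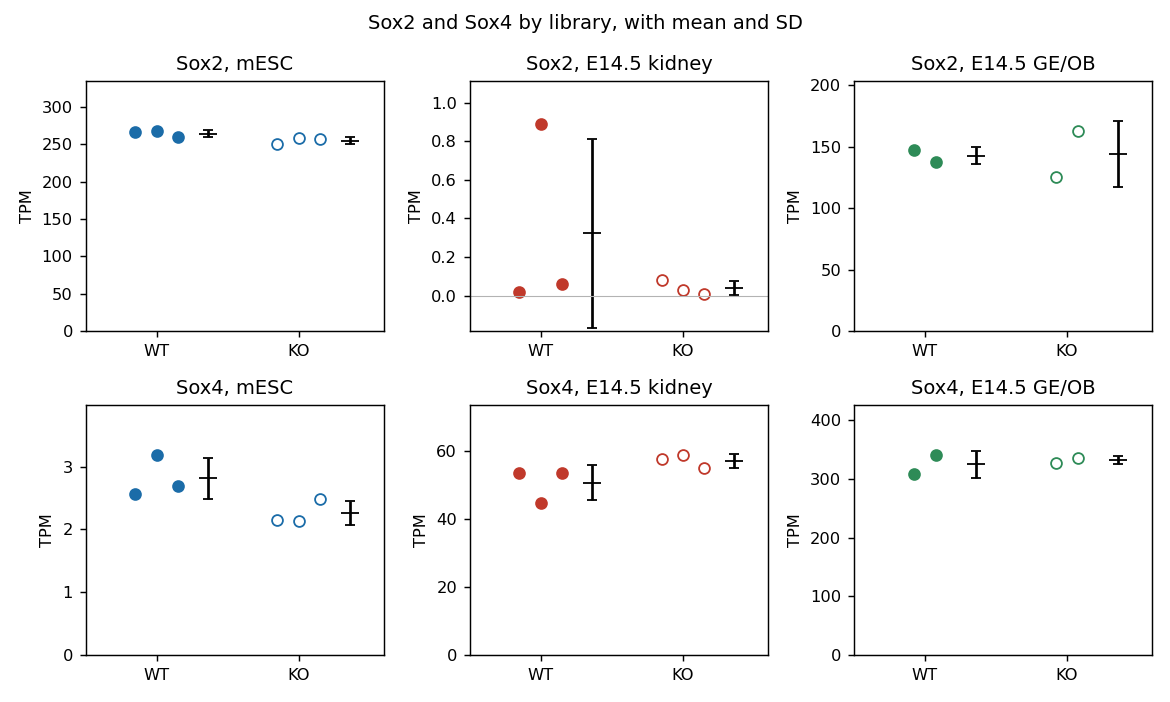
Points give TPM of Sox2 (top) and Sox4 (bottom) in each library by tissue and genotype, with the mean and SD of each group as black bars. Sox4 is lower in KO mESC (2.14 to 2.48 against 2.57 to 3.19), and in kidney a WT library at 0.89 sets the Sox2 mean.

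The remaining SoxB1 genes were not called. *Sox1* was at 0.86, 0.93 and 0.79 TPM in WT and 0.96, 0.92 and 1.02 in KO mESC, and overlapped in GE/OB as well (log2 0.12, interval -0.38 to 0.62, and -0.03, interval -0.39 to 0.34). *Sox3* was at 0.4, 0.63 and 0.71 in WT and 0.41, 0.37 and 0.29 in KO mESC, with log2 -0.80 (interval -1.53 to -0.07, adjusted p = 0.186) on 8 to 36 counts. In GE/OB *Sox3* was at 17.2 and 14.3 in the male WT and 15.3 and 23.8 in the female KO embryos, which overlapped. In kidney *Sox1* and *Sox3* had at most 3 counts in each library other than WT 3, so no fold is read from them.

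*Sox11* stayed within a narrow interval in each tissue: log2 -0.03 (-0.27 to 0.22) in mESC, 0.05 (-0.17 to 0.27) in kidney and -0.09 (-0.33 to 0.16) in GE/OB, with overlapping groups. *Sox6* in mESC was at 0.14, 0.32 and 0.23 TPM in WT and 0.14, 0.11 and 0.12 in KO, with log2 -0.71 (interval -1.26 to -0.17, adjusted p = 0.112). DESeq2 with length offsets called it (log2 -0.90, adjusted p = 0.0167). In kidney *Sox6* was at 1.03, 0.97 and 0.73 in WT and 1.53, 1.12 and 1.3 in KO, all KO above all WT. Groups did not overlap there for 16.3% of tested genes, and *Sox6* did not pass the test (log2 0.25, interval -0.01 to 0.51, adjusted p = 0.685). In GE/OB *Sox6* gave log2 0.03 (interval -0.21 to 0.27).

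*Sox9* overlapped between genotypes in every tissue, with log2 -0.11 (interval -0.35 to 0.13) in kidney and 0.13 (-0.16 to 0.41) in GE/OB. *Sox10* gave log2 -3.59 (SE 1.08, adjusted p = 0.37) in kidney and -0.53 (adjusted p = 0.957) without WT 3, and its GE/OB libraries overlapped (log2 0.55, interval -1.89 to 2.98). *Sox17* gave log2 0.16 (interval -0.21 to 0.54) in kidney and 0.07 (-0.48 to 0.62) in GE/OB, and *Sox18* -0.15 (-0.46 to 0.15) and -0.19 (-0.67 to 0.29). In GE/OB *Sox18* was at 3.44 and 3.32 in WT and 3.24 and 2.76 in KO, without overlap, the 1 gene of the 10 for which this held there (28.9% of tested genes). In mESC *Sox9*, *Sox10* and *Sox18* had at most 7 counts in any library. Over the 3 differences between tissues in the KO change, edgeR called 0 of 10 genes in each, beside 2.24% (mESC minus kidney), 1.08% (mESC minus GE/OB) and 0.0344% (kidney minus GE/OB) of tested genes. At an unadjusted p under 0.05 the counts were 3, 3 and 3, beside 15.5%, 10.6% and 4.23% of all tested genes. DESeq2 called *Sox4* and *Sox6* for mESC minus kidney, where it called 704 of all 17459 genes.

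Of 10 other Sox genes 8 were tested, and in mESC 2 rose, 1 fell and 5 were not called (2.27% of all tested genes rose and 4.59% fell), with a median log2 fold change of 0.27. *Sox12*, a SoxC gene, was at 11.4, 11.7 and 12.4 TPM in WT and 9.95, 10.6 and 11.0 in KO (log2 -0.24, SE 0.05, adjusted p = 0.00426). *Sox13*, a SoxD gene, was at 21.3, 19.8 and 21.5 in WT and 26.3, 30.7 and 29.9 in KO (log2 0.30, adjusted p = 0.0381), and *Sox21*, a SoxB2 gene, at 3.62, 3.65 and 3.88 and at 4.99, 5.97 and 5.51 (log2 0.45, adjusted p = 0.0273). The groups did not overlap for any of these 3, as for 30.9% of all tested genes. In kidney and GE/OB edgeR called 0 of 8, with 0 and 1 at an unadjusted p under 0.05. The highest WT means of these other genes were *Sox12* (85.1 TPM), *Sox5* (70.3), *Sox21* (26.3) and *Sox8* (26.2), all in GE/OB.

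Known partners and lineage genes, on lists of 6 to 9 genes, were read beside the Sox genes. Of all tested genes 40.2% were lower in WT kidney and 41.3% in WT GE/OB than in WT mESC. The 9 Sox2 partners and targets of stem cells were lower in 9 of 9 cases in both. In KO against WT mESC 0 of them were called by edgeR (2 at an unadjusted p under 0.05), with *Pou5f1*, the Oct4 gene, at 1414 ± 14.1 TPM in WT and 1384.5 ± 16.4 in KO (SD, n = 3), *Nanog* at 514 ± 11.1 and 530 ± 11.7, and *Esrrb* at 350 ± 8.04 and 371 ± 2.48. All 7 neural progenitor genes and all 6 young neuron genes were higher in WT GE/OB than in WT mESC and than in WT kidney. Of all tested genes 43.5% and 37.9% were higher in those comparisons. *Fabp7*, a radial glia fatty acid binding protein, was at 1423 ± 29.4 TPM in WT GE/OB (n = 2) and 1326 ± 14.0 in KO, *Nes*, a progenitor filament, at 150 ± 18.5 and 165 ± 43.7, and *Pax6*, a progenitor factor, at 79.5 ± 2.04 and 91.9 ± 19.4. In KO against WT, edgeR called 0 of 7 neural progenitor genes in each tissue. At an unadjusted p under 0.05 there were 2, 3 and 0 in mESC, kidney and GE/OB, beside 21.2%, 7.6% and 3.01% of all tested genes. Of the 6 young neuron genes *Map2*, a microtubule protein, rose in mESC (5.19 ± 1.28 to 7.07 ± 0.335 TPM, log2 0.52, adjusted p = 0.00646), where 2.27% of all tested genes rose.

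Of the 8 Sox10 lineage genes, 2 fell in KO mESC, where 4.59% of all tested genes fell and 2.27% rose. *Olig1* and *Olig2*, factors of oligodendrocytes and motor neurons, were at 36.1 ± 1.97 and 49.6 ± 0.945 TPM in WT and at 0.117 ± 0.0611 and 0.0267 ± 0.0462 in KO (SD, n = 3). The log2 fold change of *Olig1* was -8.41 (adjusted p = 1.04e-12), and *Olig2*, listed at 0 in 2 KO wells, had an adjusted p of 3.07e-10, and *Sox10* itself had at most 3 counts in any mESC library. In kidney 0 of the 8 were called by edgeR (4 at an unadjusted p under 0.05, beside 7.6% of all tested genes). There 7 of 8 were below 0, with a median log2 of -1.67. Without WT 3, where 6 of the 8 were tested, it was 0.13. Of 7 Sox9 cartilage and duct genes, *Col2a1*, the cartilage collagen, rose in KO mESC (1.31 ± 0.0346 to 2.07 ± 0.21 TPM, log2 0.55, adjusted p = 0.0413), and in the other tissues 0 were called by edgeR (2 in kidney and 1 in GE/OB at an unadjusted p under 0.05).

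Of 9 endothelial genes, the vascular growth factor receptor *Kdr* rose in KO mESC (0.147 ± 0.0451 to 0.7 ± 0.0265 TPM, log2 2.13, adjusted p = 0.000464) and the junction gene *Cldn5* fell (0.603 ± 0.193 to 0.173 ± 0.0961, log2 -1.70, adjusted p = 0.0334). Of all tested genes 2.27% rose and 4.59% fell there. In kidney all 9 had values above 0 with a median log2 of 0.20, beside 0 over all genes. EdgeR called 0 of them (2 at an unadjusted p under 0.05, beside 7.6% of all tested genes). Their summed TPM was 184 to 195 in WT and 208 to 281 in KO kidney. *Sox17* (1.69 to 2.27 TPM in WT, 2.19 to 2.58 in KO) and *Sox18* (8.06 to 9.49 and 6.9 to 9.47) overlapped between genotypes there.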

How the data were processed

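The 16 RNA-seq libraries were poly(A) selected with a TruSeq v2 kit, which does not mark strand. The authors used mm10 and estimated the abundance of each gene by RSEM. The deposited files hold expected counts per gene and TPM, 1 file per library, and their columns are unpooled. The expected counts, shared out by RSEM where a read has more than 1 possible source, were rounded before fitting; TPM values were used as deposited for levels, so a TPM ratio can differ from a fitted fold change. The authors also made effective lengths (another deposited column), which served as offsets in 1 alternative. A further deposited table of reporter barcodes, and the chromatin contact samples, were not used here.

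Counts of 17544707 to 45924887 per library were fitted with edgeR 4.0.16 in R 4.3.3 (TMM factors, filterByExpr by group, 1 coefficient per tissue and genotype, quasi-likelihood test). Of 26759 genes 17459 were tested, with Benjamini-Hochberg adjustment across those and calls at an adjusted p under 0.05. The authors' own test was DESeq; DESeq2 1.42.0 was an alternative. Fold changes and 95% intervals come from this fit. By the paper's methods the 3 mESC wells of a genotype came from 1 clone, so p-values there measure no spread between derivations. The fit estimated 1 spread per gene over all 16 libraries, so that within kidney and GE/OB enters the mESC p-values too. Without kidney WT 3, calls in mESC went from 1198 to 1486. Replicate numbers paired no mESC libraries, with correlations of 0.00553, 0.016 and 0.0452 between same-numbered deviations. Simulated counts with 200 changed genes, drawn from those above 1 CPM in the tissue, served as a test of the fit. It recovered 71.4% (mESC), 73.1% (kidney) and 73.3% (GE/OB) of genes changed 1.5-fold, with 4.91, 6.98 and 9.36% false calls. These shares do not cover genes below that level, such as *Sox9*, *Sox10* and *Sox18* in mESC.

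The 10 genes and the gene lists were chosen with earlier results of these data known. All 10 genes are named. Of the other Sox genes, those called in KO against WT and the 4 with the highest WT TPM are named; of each list, up to 3 members, with the smallest p in a tissue where a member was called or else the highest WT TPM; and the genes most alike in pattern. Some genes that this rule takes in are not reported here. The genes given for kidney WT 3 and the called feeder markers were named after their values were seen. Gene positions, with that of *Peril* (*Gm38509*), are from GENCODE vM21 and upstream sequence from RefSeq, both on GRCm38. RefSeq also gave the link between the names *Peril* and *Gm38509*. Alternatives were DESeq2, DESeq2 with length offsets and a sum of counts above 1, RLE factors, a filter on a sum of counts above 1 or on 1 CPM in 2 libraries, sex as an added term, blocking mESC wells by replicate number, each tissue on its own, KO in place of WT libraries, CPM in place of TPM and leaving out each library. Tables and figures were made with Python 3.11.15, pandas 2.3.3 and matplotlib 3.10.9.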

Additional observations from a re-analysis of the deposited data

Results flagged for a closer look

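*Sox4* libraries of the 2 genotypes did not overlap in mESC or in kidney, in opposite directions. Every KO mESC library lay below every WT mESC library, and every KO kidney library lay above every WT kidney library, while 30.9% and 16.3% of all tested genes had no overlap there. The kidney value, log2 0.09, was not called and ranged from 0.004 to 0.158 on leaving out a library. The difference of the 2 changes, mESC minus kidney, was log2 -0.47, with an adjusted p of 0.0796 from edgeR, so the test of the difference itself did not pass the threshold. No group held 4 or more libraries, so single outlying libraries could not be tested by a gap rule.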

How the results depend on the processing

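Counts of called Sox genes between WT tissues, and the 0 called for KO in GE/OB, stayed within 1.5 times under each alternative, and CPM in place of TPM kept the order of tissues for all 10 genes. For KO against WT mESC the count of 1 became 2 with DESeq2, length offsets and a sum of counts above 1 (*Sox4*, *Sox6*), 0 with RLE factors and 0 with the replicate block, and 0 to 1 on leaving out a library. With those length offsets 1359 of 21914 genes were called. The block moved *Sox4* to log2 -0.37 (adjusted p = 0.069); as the numbers share no pairing, this is a fit with fewer degrees of freedom. It changed calls over all genes in mESC from 1198 to 914, in kidney from 39 to 24, and in GE/OB from 11 to 4. Among Sox genes it also ended the *Sox10* call of GE/OB against mESC (4.35, adjusted p = 0.137). In kidney the count of 0 became 1 with sex as a covariate, *Sox2* at -4.33, and 0 to 1 without a library, with *Sox2* between -4.05 and -0.081. For mESC minus kidney the count of 0 became 2 with DESeq2, 2 with DESeq2 and length offsets, 1 with sex as a covariate (*Sox2*), and 0 to 1 without a library (*Sox2* without kidney WT 1, *Sox4* without kidney WT 8). Over all genes the calls for that difference were 391 in the main fit, 704 with DESeq2, 602 with length offsets and 366 with sex. *Sox2* in GE/OB ranged from -0.20 to 0.15 without a library, but from -3.63 to -0.01 over the other alternatives. *Sox1* there ranged from -3.99 to -0.02 over those alternatives, and neither gene was called in them. They include sex as a covariate, whose term cannot be estimated within GE/OB and rests on the kidney libraries. Of these the female WT 3 held 42 *Sox2* and 11 *Sox1* counts. Each tissue on its own called 3561, 10 and 6 genes in mESC, kidney and GE/OB in place of 1198, 39 and 11, and DESeq2 called 1644, 76 and 19.

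Signs turned in results that the main fit did not call, mostly for values near 0 or on few counts. *Sox3* in GE/OB, at log2 0.28 on 248 to 466 counts, was neither. In GE/OB *Sox4* was -0.006 with DESeq2, -0.011 with length offsets, -0.006 with RLE factors and -0.008 fitted alone. With sex as a covariate, which in GE/OB rests on the kidney libraries, *Sox3* was -1.38, *Sox10* -1.47 and *Sox11* 0.10 in GE/OB. The same fit put *Sox10* in GE/OB against kidney at 0.27. KO libraries put that *Sox10* value at 2.94, a call (adjusted p = 0.0316 from edgeR), and it ranged from -1.775 to 1.843 without a library. In mESC *Sox17* was -0.54 with length offsets and *Sox11* 0.009 fitted alone. Leaving out a library gave GE/OB ranges of -0.127 to 0.082 (*Sox1*), -0.054 to 0.559 (*Sox3*), -0.067 to 0.085 (*Sox4*), -0.030 to 0.096 (*Sox6*), -0.073 to 0.311 (*Sox9*), -0.008 to 0.902 (*Sox10*), -0.210 to 0.034 (*Sox11*) and -0.040 to 0.190 (*Sox17*), kidney ranges of -2.89 to 3.14 (*Sox1*) and -0.032 to 0.170 (*Sox11*), and mESC ranges of -0.439 to 0.008 (*Sox9*), -0.085 to 0.044 (*Sox11*) and -0.232 to 0.185 (*Sox17*). The causes were not tested. Groups of 2 or 3 libraries, and under 50 counts for *Sox2*, *Sox1* and *Sox3* in kidney, limit what can be seen.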
